A study of Mus musculus with 9 samples.

Results

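The 9 genes described here encode transporters and enzymes with which the kidney tubule handles bicarbonate, protons and ammonia. They were taken by name from the mRNA tables as Slc9a3, Slc4a4, Car4, Car2, Slc38a3, Rhcg, Atp6v1b1, Slc4a1 and Slc26a4, and all 9 were found among the 21950 genes listed. Each gene's level is the sum of the FPKM values of its transcripts (the fragments counted for a transcript, scaled to its length and to the number of mapped fragments in the library). The libraries came from the renal cortex of 9 male C57BL/KsJ mice of the BKS.Cg-Dock7m+/+Leprdb/Nju line, 1 library per mouse and 3 mice in each of 3 groups, all taken at 15 weeks of age. The Control group held nondiabetic db/m littermates, which carry 1 mutant copy of the leptin receptor. The dbdb group held diabetic mice with both copies mutated that received vehicle, and the dbR group held diabetic mice of the same genotype that received rosiglitazone by gavage (20 mg/kg/day), starting at 7 weeks of age and lasting 8 weeks. Rosiglitazone is an agonist of the nuclear receptor PPARγ that sensitises tissues to insulin. The comparisons asked how diabetic cortex differed from Control cortex, and how treated diabetic cortex differed from untreated. The paper reports that db/db mice were heavier than Control mice, and that dbR mice became heavier than dbdb mice. Effects of diabetes, genotype and body weight cannot be told apart in dbdb against Control.

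The kidney reclaims filtered bicarbonate in the proximal tubule, where a sodium-proton exchanger acidifies the lumen, carbonic anhydrases interconvert bicarbonate and carbon dioxide, and a sodium-bicarbonate cotransporter carries bicarbonate to the blood. The proximal tubule also takes up glutamine and makes ammonia from it, and this ammonia is later secreted along the collecting duct. Fine adjustment falls to the intercalated cells of the connecting tubule and collecting duct, in which type A cells secrete protons through a vacuolar H+-ATPase (V-ATPase) and return bicarbonate through the anion exchanger AE1, while type B cells secrete bicarbonate through pendrin.

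The libraries differed little in depth, with relative depths between 0.914 and 1.14 as read from the steps of the lowest FPKM values, and log2 levels correlated at 0.985 to 0.992 between mice of a group. Mitochondrial transcripts took 26.9% to 32.8% of the summed FPKM. Lepr, the mutated gene, was listed at 1.05 to 1.23 FPKM in the Control mice and at 0.304 to 0.652 FPKM in the 6 db/db mice. The summed level of 12 proximal tubule markers was 5393 to 6966 FPKM over all mice. Of 8 inner medulla and papilla markers, Slc14a2, a urea transporter, did not exceed 0.119 FPKM in any mouse, and of the 7 tested, 3 were lower in dbdb than in Control, among them Aqp4 (5.44 against 16.0 FPKM on average) and Akr1b3 (20.0 against 47.6), and 2 were higher, among them Clu (108.8 against 54.6). The part of medullary tissue in the results below was not tested. Mouse 3 of the dbdb group (mice are numbered as in the labels) stood apart from the other dbdb mice for several genes below.

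In the dbdb group, 7 of the 9 genes differed from Control at an adjusted p under 0.05 (limma on log2(FPKM + 0.1), Benjamini-Hochberg over 14537 genes), where 26.4% of all genes tested did. Rhcg, Slc4a1, Atp6v1b1 and Slc26a4, which act in the connecting tubule and collecting duct, together with Car2 and Slc38a3, rose 1.36- to 2.33-fold. Car4 fell to 0.371 of its Control level, and neither Slc9a3 nor Slc4a4 passed the test. For the same 7 genes the 3 dbdb and 3 Control values did not overlap, against 42.4% of all genes. The median log2 fold change of the 9 genes was 0.70, and that of all genes was -0.003.

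In the dbR group, 1 of the 9 genes differed from dbdb, against 0.743% of all genes. This was Car4, which was 1.60-fold higher than in dbdb. The values of 2 genes, Car4 and Slc9a3, did not overlap between dbR and dbdb, against 22.7% of all genes. Set against Control, all 9 genes passed the test in dbR, 7 higher and 2 lower, where 24.1% of all genes passed, and in all 9 the groups did not overlap, against 41.9% of all genes. The comparisons of dbdb with Control and of dbR with dbdb share the dbdb mice, and both comparisons with Control share the Control mice, so they are not independent of each other.

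**Figure D1:**
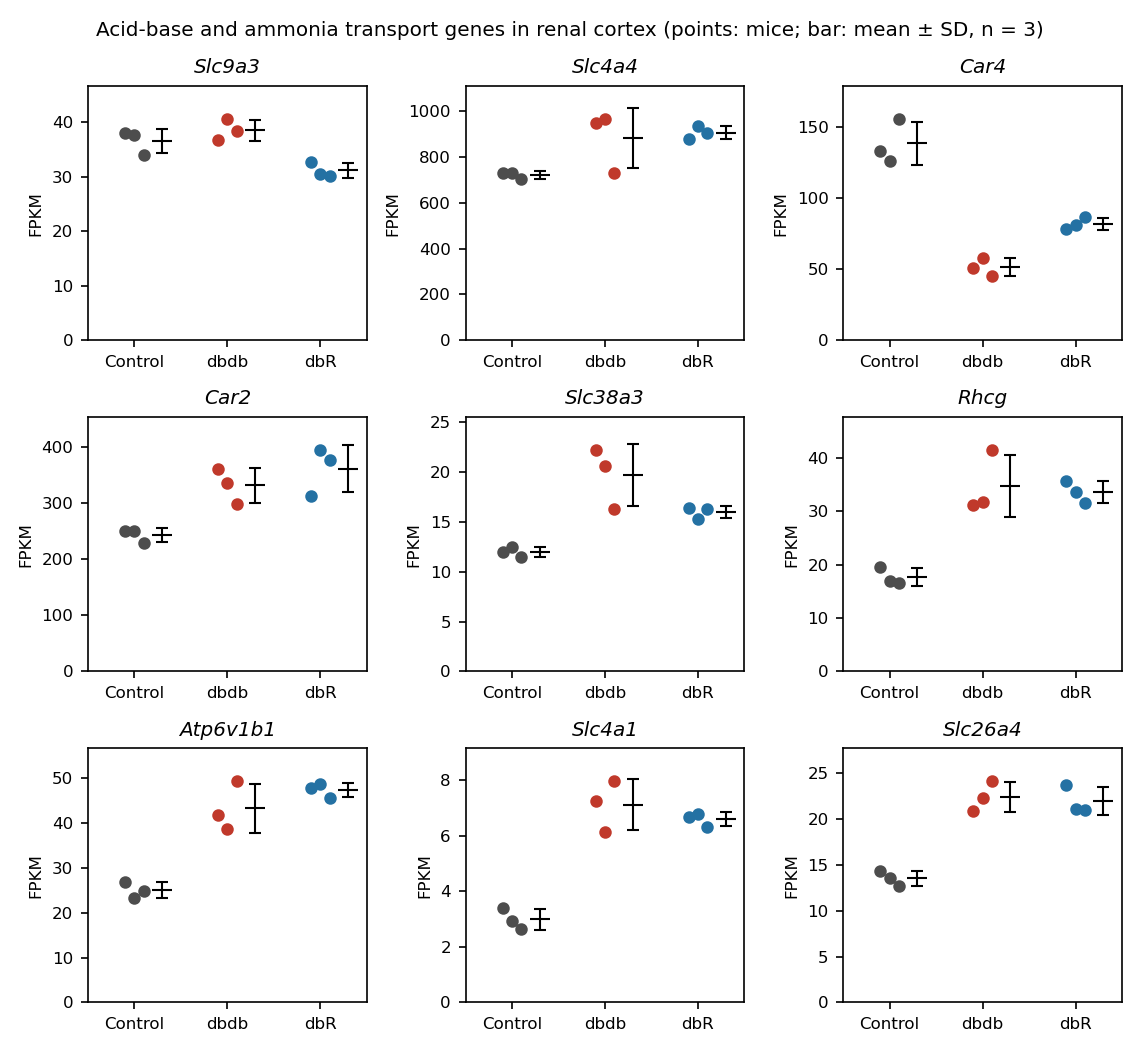
FPKM of the 9 genes (y axes, linear from 0) in each mouse of the Control, dbdb and dbR groups; points are mice, and the black marks give the mean ± SD of 3 mice. Rhcg, Atp6v1b1, Slc4a1 and Slc26a4 lie higher in all 6 db/db mice than in any Control mouse, and Car4 is lowest in dbdb at 45.5 to 58.0 FPKM, with dbR between dbdb and Control.

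The promoters of Atp6v1b1 and Slc26a4 are shown first, because both genes rose in dbdb and their windows held a match to the motif searched. Foxi1 is a forkhead transcription factor that intercalated cells need to form, and forkhead factors bind short sites built on TGTTTAC. The 250 bases before the start of each gene in the RefSeq promoter table (GRCm38.p6), which held 6 of the 9 genes in 7 windows (not Slc4a1, Car2 and Slc38a3), were searched on both strands for TGTTTAC itself, for its variant TGTTTAT, for the spelling TATTTAC and for the spelling TATTTAT. These spellings are alternatives of each other at the second and last base and can overlap only where sites run together. A match was present in 2 of the 7 windows, those of Atp6v1b1 and Slc26a4, and in 13.6% of all 32817 promoter windows. Each is given below on the gene's own strand, with the match in capitals.

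Atp6v1b1 (chr6:83742879-83742965, plus strand): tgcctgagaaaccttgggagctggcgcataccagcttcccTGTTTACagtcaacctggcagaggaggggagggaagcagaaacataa
Slc26a4 (chr12:31560003-31560089, minus strand): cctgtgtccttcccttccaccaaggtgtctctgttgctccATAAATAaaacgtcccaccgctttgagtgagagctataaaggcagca

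The Atp6v1b1 match is TGTTTAC on the gene's own strand and begins 98 bases before the start, and 3.16% of all windows hold this spelling. The Slc26a4 match, ATAAATA, is the opposite-strand reading of TATTTAT, begins 65 bases before the start, and that spelling occurs in 5.17% of all windows. The windows of Rhcg, Car4, Slc9a3 and both starts of Slc4a4 held no match. These are letters in a window, and binding was not measured.

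Slc9a3 (chr13:74121457-74169442, plus strand) encodes NHE3, the sodium-proton exchanger of the proximal brush border. Its FPKM was 38.0, 37.8 and 34.0 in Control, 36.7, 40.6 and 38.4 in dbdb, and 32.8, 30.6 and 30.1 in dbR. Control and dbdb overlapped and differed by 0.08 on the log2 scale, with a 95% interval of -0.07 to 0.22 (adjusted p = 0.426). All 3 dbR mice were below all mice of both other groups. The log2 difference of dbR from dbdb was -0.31 ± 0.066 (SE) and missed the threshold (adjusted p = 0.0632), and that of dbR from Control was -0.23 (adjusted p = 0.0312). The difference from Control no longer passed under 8 of 21 alternative settings, among them each of the 3 other scalings and leaving out Control mouse 1 or 2 or dbR mouse 2 or 3, with log2 differences from -0.28 to -0.13 over all settings.

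Slc4a4 (chr5:88886818-89239653, plus strand) encodes NBCe1, the sodium-bicarbonate cotransporter of the proximal basolateral membrane, and had the highest FPKM of the 9 genes in every mouse. It stood at 729, 731 and 702 in Control, at 947, 963 and 729 in dbdb, and at 876, 934 and 905 in dbR. Mouse 3 of dbdb lay inside the Control range and the other two lay above it. With all mice the difference of dbdb from Control was 0.28 on the log2 scale (95% interval 0.04 to 0.51, adjusted p = 0.0793), and without dbdb mouse 3 it was 0.41 (adjusted p = 0.00615). All dbR values exceeded all Control values, by 0.33 on the log2 scale (adjusted p = 0.0472), a call that was lost under 11 of 21 settings, including leaving out any 1 of the Control or dbR mice, with adjusted p up to 0.143.

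Car4 (chr11:84957786-84966044, plus strand) encodes carbonic anhydrase IV, anchored on the luminal and basolateral surface of tubule cells and also found on renal capillaries. It was at 133, 126 and 155 FPKM in Control, at 50.5, 58.0 and 45.5 in dbdb, and at 78.5, 80.7 and 86.7 in dbR. The 3 groups did not overlap, with dbR between the other two. The log2 difference of dbdb from Control was -1.43 ± 0.10 (adjusted p = 1.83e-05), and it stayed past the threshold in all 21 alternatives. That of dbR from dbdb was 0.68 ± 0.10 (adjusted p = 0.0256), a call that 7 of the 21 alternatives lost without changing its direction (0.60 to 0.77, adjusted p 0.0138 to 0.116). Among those 7 were leaving out dbdb mouse 1 (adjusted p = 0.0572), dbR mouse 2 (0.116) or dbR mouse 3 (0.0704).

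Because Car4 is also made by capillary endothelium, the endothelial markers are given beside it. The summed level of 8 endothelial genes was 153 to 170 FPKM in Control, 128 to 139 in dbdb and 170 to 192 in dbR. Of these 8 genes, 4 fell and 1 rose in dbdb, and Emcn and Kdr rose in dbR over dbdb, by 0.66 and 0.52 on the log2 scale (adjusted p = 0.0205 and 0.0309). The 5 calls in dbdb became 3 without Control mouse 2 or 3 or dbdb mouse 2. The Emcn call was lost without dbdb mouse 2 or dbR mouse 2 or 3 (adjusted p up to 0.0688), and the Kdr call without dbdb mouse 1 or any 1 dbR mouse (up to 0.151). The endothelial sum was thus lowest in dbdb, as Car4 was, over a smaller span. In dbR the endothelial sum exceeded that of every Control mouse, while Car4 stayed below every Control mouse. The part of endothelial RNA in the Car4 result was not tested.

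Car2 (chr3:14886273-14900770, plus strand) encodes the cytosolic carbonic anhydrase II, which supplies protons and bicarbonate in both proximal and intercalated cells. Its FPKM was 249, 250 and 229 in Control, 361, 335 and 299 in dbdb, and 313, 394 and 376 in dbR. All 6 db/db mice exceeded all Control mice. Car2 rose by 0.45 ± 0.099 on the log2 scale in dbdb (adjusted p = 0.00898) and by 0.57 in dbR over Control (adjusted p = 0.00292), and dbR and dbdb overlapped with a difference of 0.12 (95% interval -0.10 to 0.34).

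Slc38a3 (chr9:107650634-107669530, minus strand) encodes SNAT3, which carries glutamine into the proximal cell for ammonia production. It was at 12.0, 12.5 and 11.5 FPKM in Control, 22.2, 20.6 and 16.2 in dbdb, and 16.4, 15.3 and 16.3 in dbR. Slc38a3 rose by 0.70 ± 0.104 on the log2 scale in dbdb (adjusted p = 0.00108) and by 0.42 in dbR over Control (adjusted p = 0.0166). Mouse 3 of dbdb was within the dbR range while the other two were above it. The difference of dbR from dbdb was -0.29 (adjusted p = 0.197), and without dbdb mouse 3 it was -0.42 and passed (adjusted p = 0.0381). The rise in dbR over Control was lost without Control mouse 3 or without dbR mouse 1 or 3 (adjusted p = 0.0551, 0.0546 and 0.0512), and when the transcript of highest level, Slc38a3-209, stood for the gene (0.21, adjusted p = 0.171).

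Rhcg (chr7:79593363-79617657, minus strand) encodes the Rhesus glycoprotein that passes ammonia through the apical and basolateral membranes of collecting duct and connecting tubule cells. It stood at 19.6, 16.9 and 16.5 FPKM in Control, at 31.1, 31.7 and 41.4 in dbdb, and at 35.7, 33.6 and 31.5 in dbR. Every db/db mouse was above every Control mouse. Rhcg rose by 0.96 ± 0.112 on the log2 scale in dbdb (adjusted p = 0.000292) and by 0.93 in dbR over Control (adjusted p = 0.000404). The difference of dbR from dbdb was -0.04, with a 95% interval of -0.29 to 0.22. Without dbdb mouse 3, the highest of its group, the rise in dbdb was 0.83 (adjusted p = 0.000349) and the difference of dbR from dbdb was 0.10 (adjusted p = 0.639).

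Atp6v1b1 (chr6:83742990-83758855, plus strand) encodes the B1 subunit of the V-ATPase that intercalated cells use at the plasma membrane. Its FPKM was 26.9, 23.4 and 24.8 in Control, 41.8, 38.8 and 49.4 in dbdb, and 47.9, 48.8 and 45.7 in dbR. All db/db mice were above Control, and dbR overlapped dbdb only through dbdb mouse 3. Atp6v1b1 rose by 0.78 ± 0.089 on the log2 scale in dbdb (adjusted p = 0.000248) and by 0.92 in dbR over Control (adjusted p = 0.000114). The difference of dbR from dbdb was 0.14, with a 95% interval of -0.06 to 0.34. Without dbdb mouse 3 the rise in dbdb was 0.68 (adjusted p = 0.00042) and the difference of dbR from dbdb was 0.24, still short of the threshold (adjusted p = 0.173).

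Slc4a1 (chr11:102348824-102366203, minus strand) encodes AE1, the chloride-bicarbonate exchanger of type A intercalated cells, which is also the band 3 protein of red blood cells. It had the lowest FPKM of the 9 genes, at 3.40, 2.93 and 2.64 in Control, 7.26, 6.14 and 7.96 in dbdb, and 6.68, 6.80 and 6.31 in dbR. Its rise was the largest of the 9 genes, 1.22 ± 0.117 on the log2 scale in dbdb (adjusted p = 0.000102) and 1.12 in dbR over Control (adjusted p = 0.000189). The difference of dbR from dbdb was -0.10, with a 95% interval of -0.36 to 0.16. Of 16 red blood cell genes listed, 14 were in the tables, 5 were below 0.1 FPKM in every mouse and none of the 7 tested passed in dbdb (2 at an unadjusted p under 0.05). Their summed level was 107, 9.82 and 26.3 FPKM in Control, 21.6, 9.88 and 9.78 in dbdb, and 13.6, 20.1 and 21.8 in dbR. The count of 0 became 3, all lower in dbdb, without Control mouse 2, and 1 without Control mouse 3 or dbdb mouse 1 or 3. In dbR over Control, with all mice, 1 of the 7 passed, Klf1, an erythroid transcription factor, which was higher by 0.67 on the log2 scale (adjusted p = 0.0312). That count became 0 without Control mouse 1 or 2 or any 1 of the dbR mice, with no filter, with quantile normalization and with the replicate block. The part of red cell RNA in the Slc4a1 result was not tested.

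Slc26a4 (chr12:31519827-31559969, minus strand) encodes pendrin, the chloride-bicarbonate exchanger of type B intercalated cells. It was at 14.3, 13.6 and 12.7 FPKM in Control, 20.9, 22.3 and 24.2 in dbdb, and 23.8, 21.1 and 21.1 in dbR. Every db/db mouse exceeded every Control mouse. Slc26a4 rose by 0.72 ± 0.078 on the log2 scale in dbdb (adjusted p = 0.000193) and by 0.70 in dbR over Control (adjusted p = 0.000276). The difference of dbR from dbdb was -0.03, with a 95% interval of -0.20 to 0.15.

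**Figure D2:**
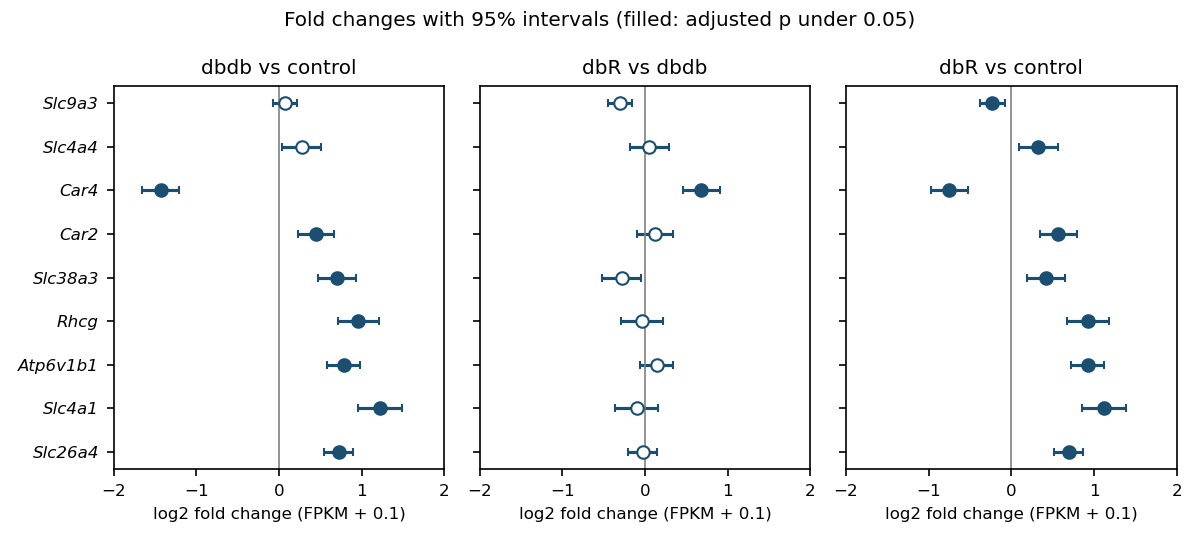
Log2 fold change of each gene (x axis, FPKM + 0.1) with its 95% interval in dbdb over Control, dbR over dbdb and dbR over Control; filled points passed an adjusted p under 0.05. In the middle panel 8 of the 9 points are open and Car4 alone is filled, at 0.68.

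The exchangers of base-secreting and acid-secreting cells were also compared within each library. The log2 ratio of Slc26a4 to Slc4a1 within a library averaged 2.18 ± 0.10 (SD, n = 3) for Control, 1.66 ± 0.18 for dbdb and 1.74 ± 0.10 for dbR, and the Control ratios did not overlap those of either db/db group. The ratio of Slc4a1 to Atp6v1b1 averaged -3.07 for Control, -2.61 for dbdb and -2.85 for dbR, with no overlap between any of the 3 groups. Slc26a4 over Atp6v1b1 averaged -0.89 for Control, -0.94 for dbdb and -1.11 for dbR, where dbdb overlapped both other groups and dbR lay below Control without overlap. An exact permutation test, two-sided, of 3 mice against 3 cannot give less than p = 0.1, the value reached wherever 2 groups did not overlap, and over the 24 comparisons of 8 ratios the lowest Benjamini-Hochberg value was 0.15, so none of these ratios passed a test.

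By FPKM the order in Control ran Slc4a4, Car2, Car4, Slc9a3, Atp6v1b1, Rhcg, Slc26a4, Slc38a3 and Slc4a1, with no overlap between neighbours. In dbdb Car4, Atp6v1b1, Slc9a3 and Rhcg came to lie at 51.3, 43.3, 38.6 and 34.7 FPKM on average, each overlapping the next, as did Slc26a4 and Slc38a3 at 22.4 and 19.7. In dbR the order was again apart except between Rhcg and Slc9a3, at 33.6 and 31.2.

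The transcript values place most of these genes on 1 transcript. Slc4a1, Slc26a4 and Slc9a3 had 1 transcript each in the tables, Car4-201 took at least 98.8% of Car4, and Atp6v1b1-201 took 90.8% to 94.0% of Atp6v1b1. Rhcg-203 took 9.71% to 11.4% of the Rhcg level in Control mice, 11.5% to 17.8% in dbdb mice and 13.5% to 15.7% in dbR mice. For Slc4a4 the level was divided among Slc4a4-207, which begins at the upstream start (88886818), Slc4a4-203, which begins at the internal start (89027966), and Slc4a4-204, a 5-exon fragment of 780 bases. Slc4a4-207 held 43.5% to 45.5% of the level in Control mice, 42.1% to 42.4% in dbdb mice and 41.0% to 42.0% in dbR mice, and Slc4a4-204 held 30.6% to 31.3%, 33.0% to 34.1% and 34.5% to 35.4%, in both cases with no overlap between groups. Slc4a4-203 held 20.7% to 22.8% of the level in Control, 20.0% to 20.9% in dbdb and 20.4% to 21.1% in dbR, and all 3 groups overlapped. No test was run on these shares. The shares of overlapping transcripts are estimates by the authors' assembler.

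The other genes of the same pathways were then examined, list by list, and their counts are descriptions to be read beside the shares of all genes given above.

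The V-ATPase split by the kind of subunit. The 4 subunits listed with intercalated cells, beside Atp6v1b1, rose in dbdb in 4 of 4 cases, with a median log2 fold change of 0.59. Atp6v1c2 rose by 0.81, Atp6v0d2 by 0.71, Atp6v1g3 by 0.47 and Atp6v0a4 by 0.45. Atp6v0a4, which the proximal tubule also makes, averaged 103 FPKM in Control, against 6.70 to 11.3 for the other 3, whose median without it was 0.71. Of the 16 subunits and accessory proteins found in all cells, 2 fell in dbdb, Atp6v1c1 by 0.21 and Atp6v0a2 by 0.23, and the median was -0.04. That direction depended on scaling, since 4 of the 16 were called and all were higher, with a median of 0.12, when mitochondrial transcripts were left out and the rest rescaled, a step that moved the median of all genes to 0.15, and 3 of 4 calls were higher after quantile normalization. Both calls were also lost when Control mouse 1 or 3 or dbdb mouse 3 was left out. Atp6v1b2, the widespread B subunit that pairs with Atp6v1b1 as its alternative, was at 156 to 168 FPKM in Control and 148 to 167 in dbdb.

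Atp6v1g3 was also among the genes that differed between dbR and dbdb. It was at 10.4, 11.7 and 11.8 FPKM in Control, 15.4, 14.8 and 16.9 in dbdb, and 22.2, 23.6 and 21.8 in dbR, with no overlap between groups. The rise in dbR over dbdb was 0.52 on the log2 scale (adjusted p = 0.0251), a call lost under 8 of 21 settings, including without dbdb mouse 1 or 2 or dbR mouse 2 or 3 (0.46 to 0.58 over all settings, adjusted p up to 0.12). No other V-ATPase gene of the 20 passed in that comparison.

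All 14 other intercalated cell markers, 8 of which also stand in other lists here, rose in dbdb, with a median log2 fold change of 0.74, and all 14 were higher in dbR than in Control, with a median of 0.80. They included Foxi1, at 5.75, 5.52 and 5.29 FPKM in Control, 9.89, 9.50 and 9.33 in dbdb, and 8.08, 9.02 and 8.37 in dbR, a rise of 0.78 in dbdb (adjusted p = 7.33e-05). Aqp6, the intracellular water channel of type A cells, rose by 1.52, Hmx2, a homeobox factor, by 0.99, Slc4a9, the basolateral exchanger AE4 of type B cells, by 0.92, and Insrr, the alkali-sensing receptor, by 0.69. Between 13 and 14 of the 14 passed under every alternative tried. In whole cortex, more intercalated cells and more of these RNAs per cell cannot be told apart.

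Other distal cells moved as well. Of 9 principal cell and connecting tubule markers, 7 rose in dbdb, with Calb1, the calcium-binding protein of the connecting tubule, up by 2.12, Aqp2, the vasopressin-regulated water channel, by 1.34, and Scnn1g, a subunit of the sodium channel ENaC, by 1.02. Their summed level was 175 to 203 FPKM in Control, 380 to 503 in dbdb and 342 to 375 in dbR. Fxyd4, a FXYD-family membrane protein of principal cells, was the 1 gene of these 9 to pass between dbR and dbdb, at 0.64 (adjusted p = 0.0433), a call lost under 12 of 21 settings, including without Control mouse 2 or any 1 of the dbdb or dbR mice (adjusted p up to 0.164). Of 8 thick ascending limb and distal convoluted tubule markers, 4 rose and 1 fell, led by Trpm6 and Slc12a3 at 1.22 and 0.98 and with Cldn10 at -0.89. The summed intercalated markers were 199 to 214 FPKM in Control, 303 to 339 in dbdb and 315 to 331 in dbR, and without Atp6v0a4 they were 98.1 to 107, 165 to 199.7 and 184 to 197. By contrast, 3 of 12 proximal tubule markers rose and 3 fell, and their sum in dbdb, 5393 to 6545, overlapped the Control range of 6296 to 6966. Of 11 interstitial and immune cell markers, 5 fell in dbdb, and their sum was 55.9 to 77.2 FPKM in Control, 31.6 to 52.0 in dbdb and 44.8 to 55.6 in dbR. The 5 became 8 without dbdb mouse 3. Between dbR and dbdb, 1 of the 11 passed, higher in dbR, and 0 to 1 passed with single mice left out. There the median log2 fold change was 0.48, with 10 of the 11 above 0. The part of these cell-type levels in the results for Rhcg, Slc4a1, Atp6v1b1 and Slc26a4 was not tested.

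**Figure D3:**
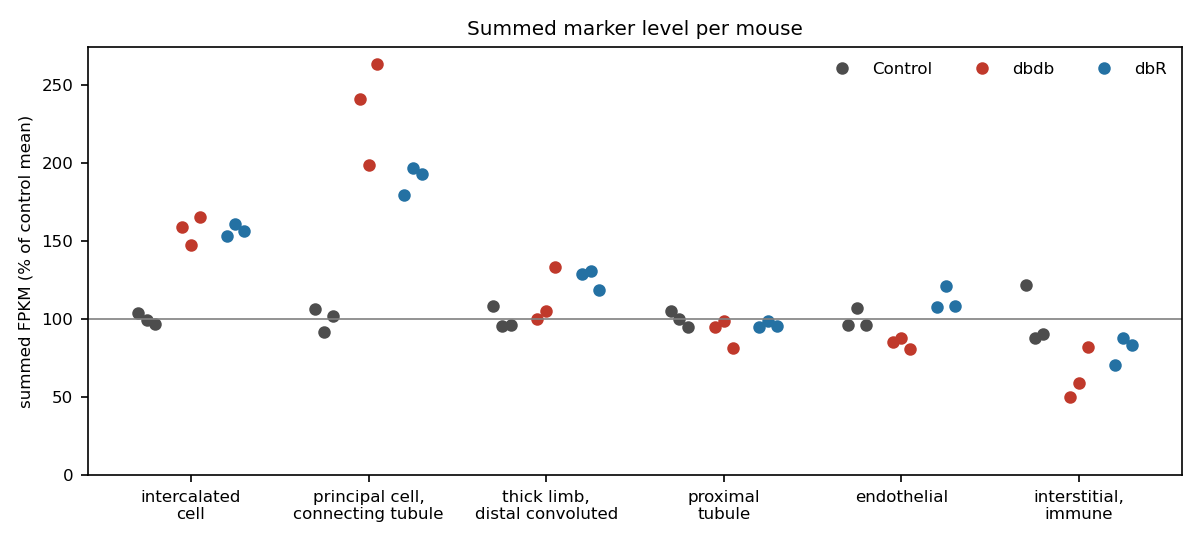
Summed FPKM of each marker list in each mouse as a percentage of the Control mean (y axis, linear from 0; points are mice). Intercalated markers lie at 147% to 165% in dbdb and 153% to 161% in dbR (161% to 195% and 180.1% to 192% without Atp6v0a4, which is also made elsewhere), principal cell and connecting tubule markers at 199% to 264% and 179% to 197%, and proximal tubule markers at 81.3% to 98.6% and 94.6% to 98.6%.

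Among 14 listed genes of anion exchange and chloride channels, not all confined to distal cells, 8 rose in dbdb and none fell, with a median of 0.44. Besides Slc4a9, Slc4a3, the anion exchanger AE3, rose by 1.25 from 0.427 to 0.944 FPKM in Control to 1.17 to 2.36 in dbdb, and Slc26a6, an exchanger of chloride for oxalate and other anions, rose by 0.59. Slc26a7, an anion exchanger of type A cells, rose by 1.13 but at 0.220 to 0.347 FPKM in Control and 0.495 to 1.26 in dbdb. The count fell to 4 without Control mouse 2 and to 5 without Control mouse 1 or 3 or dbdb mouse 2 or 3. Atp4a, the alpha subunit of the gastric-type H,K-ATPase, rose by 1.37 from 3.80 to 4.83 FPKM to 9.97 to 11.6, while Atp4b and Atp12a averaged below 0.1 FPKM over the 9 libraries and were not tested, with Atp12a at 0.0558 to 0.0883 in Control and 0.106 to 0.199 in dbdb.

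Among 14 further genes of ammonia production and transport, 8 rose in dbdb, with a median of 0.31. Pck1, which consumes the carbon skeleton of glutamine in gluconeogenesis, was at 630 to 728 FPKM in Control and 1371 to 2236 in dbdb, a rise of 1.41 (adjusted p = 0.000207). Glud1, the mitochondrial glutamate dehydrogenase that releases ammonia, rose by 0.88, and Rhbg, the basolateral partner of Rhcg, by 1.28. Glul, which uses ammonia to rebuild glutamine, rose by 0.68, so that genes on the producing and the consuming side were both higher. The count of those that rose became 5 without dbdb mouse 2. Glud1 was at 323, 311 and 269 FPKM in dbdb and 242, 215 and 239 in dbR, a log2 difference of -0.37 that missed the threshold (adjusted p = 0.0746).

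Among 15 tested genes of proximal bicarbonate reclamation other than the members, 8 rose and 3 fell in dbdb, with a median of 0.21. Car15 and Car14, both membrane-bound carbonic anhydrases, rose by 0.81 and 0.47 while Car4 fell, and Car12 was at 122 to 135 FPKM in Control and 126 to 136 in dbdb (adjusted p = 0.792). Slc9a8, the sodium-proton exchanger NHE8, fell by 1.37, from 21.4 to 30.2 FPKM in Control to 9.61 to 10.4 in dbdb, and was at 8.28 to 9.85 in dbR, in contrast to Slc9a3. Car3, a cytosolic carbonic anhydrase of low activity, fell by 1.19, and none of the 15 passed between dbR and dbdb (2 at an unadjusted p under 0.05).

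Of 14 acid-base sensors and regulators, 6 rose in dbdb and none fell, with a median of 0.31. Besides Foxi1 and Insrr these were Wnk4 and Stk39, kinases that control distal chloride transport, at 0.86 and 0.44, Tfcp2l1, a factor of the collecting duct epithelium, at 0.82, and Nr3c2, the mineralocorticoid receptor, at 0.40. Edn1, the endothelin that stimulates distal acid secretion, was at 0.289 to 0.362 FPKM in Control and 0.393 to 0.501 in dbdb without passing (adjusted p = 0.123), and in dbR, at 0.521 to 0.674, it was higher than in Control by 0.73 (adjusted p = 0.0153). None of the 14 passed between dbR and dbdb (5 at an unadjusted p under 0.05).

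**Figure D4:**
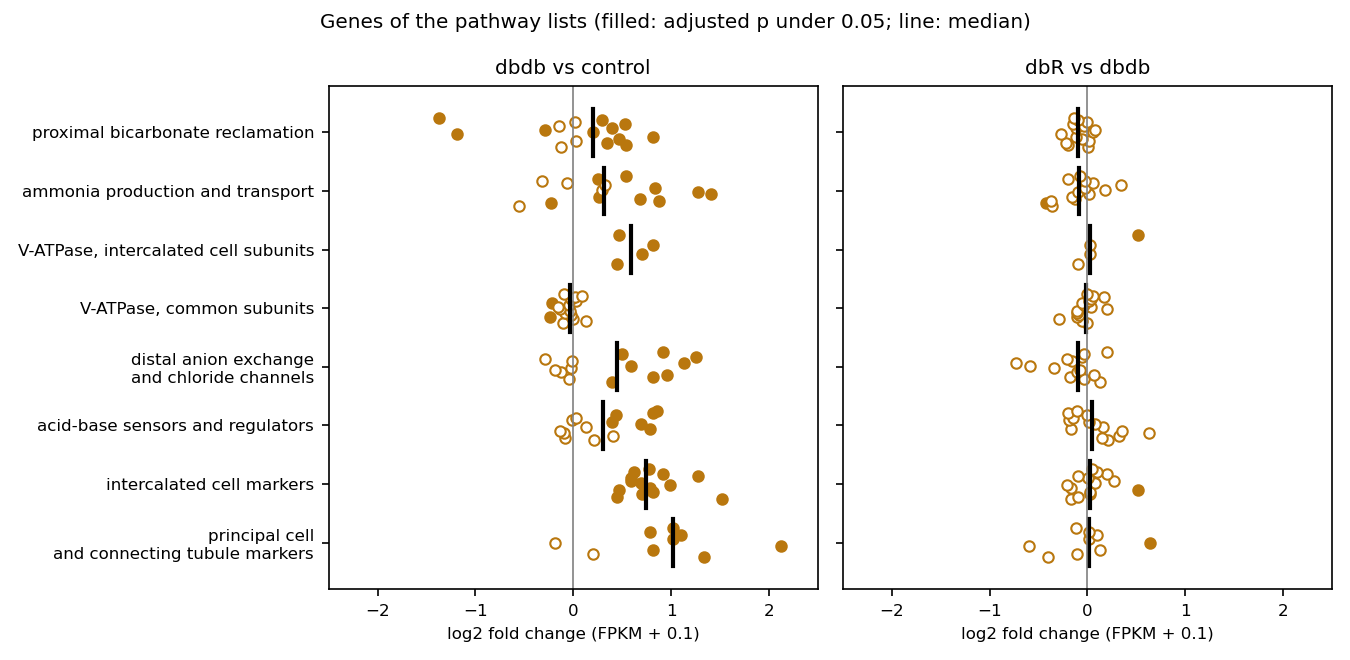
Log2 fold change (x axis, FPKM + 0.1) of each tested gene of 8 lists in dbdb over Control and in dbR over dbdb; filled points passed an adjusted p under 0.05 and the black line is the list's median. In the left panel the 4 V-ATPase subunits listed with intercalated cells lie at 0.45 to 0.81 and the common subunits lie at -0.23 to 0.13, and in the right panel the medians lie between -0.09 and 0.04.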

How the data were processed

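Total RNA from the renal cortex of each mouse was depleted of ribosomal RNA and made into strand-specific libraries. The deposited FPKM values per transcript were computed by the authors, whose processing notes name TopHat2 (2.0.9), Cufflinks (2.1.1) and genome build GRCm38.p2. FPKM keeps no read counts, so no count model was run, and a gene's share of a library depends on its other transcripts, mitochondrial ones included. Transcript values were summed per gene identifier. Genes with a mean of at least 0.1 FPKM over the 9 libraries were tested on log2(FPKM + 0.1) with limma (3.58.1, R 4.3.3), in 1 model of 3 groups with a mean-variance trend. P-values were adjusted by Benjamini-Hochberg over all 14537 genes in each comparison, and genes at an adjusted p under 0.05 were called. The procedure was tested on simulated data. P-values set a difference of group means against the spread between mice, which the model estimates from all 3 groups and with information shared across genes. Fold changes understate changes of genes near the pseudocount. The 9 genes, the lists and the tests were chosen with earlier results of these data known. Listed genes were named where they were called in a comparison, keeping at most the 8 largest changes of a list, or were among the 2 of highest FPKM. Others were named after their values were seen: Atp6v1b2, Car12, Edn1, Atp4b, Atp12a, Slc14a2 and Lepr. Some genes counted in the lists are not reported here. Positions are from GENCODE M21 (GRCm38). Ratios were taken on FPKM without a pseudocount.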

Additional observations from a re-analysis of the deposited data

How the results depend on the processing

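The 21 alternatives changed the filter, pseudocount, scaling, variance model, transcript summary or the mice included. In dbdb over Control the 7 calls held in all 21, with 7 to 8 of the 9 genes called. Slc4a4 was the eighth, at 0.30 after 75th percentile scaling, 0.41 after quantile normalization, 0.44 with mitochondrial transcripts left out and 0.41 without dbdb mouse 3; it was not called in the other 17, and its range with single mice left out was 0.21 to 0.41. In dbR over Control 6 to 9 of the 9 were called. Between dbR and dbdb 0 were called with no filter, with only the 6 libraries compared, with the replicate block and without the trend, and 0 to 2 with single mice left out. The count over all genes in that comparison, 108, became 31 with no filter, 166 at a mean of at least 1 FPKM, 203 with 75th percentile scaling, 235 with quantile normalization, 22 with only the 6 libraries, 23 with the replicate block, 18 without the trend, 166 with robust variances, 49 with the top transcript, and 2 (without dbR mouse 2) to 141 with single mice left out. Signs changed in that comparison for Slc4a4 (-0.044 with quantile normalization, -0.012 without mitochondrial transcripts, -0.078 to 0.12 with single mice left out), Car2 (-0.0074 with quantile normalization), and, with single mice left out, Rhcg (-0.11 to 0.097) and Slc26a4 (-0.086 to 0.025), all uncalled. Leaving out mitochondrial transcripts moved calls in dbdb over Control from 1899 higher and 1941 lower to 3492 and 969, in dbR over Control from 1786 and 1711 to 2404 and 1006 (2210 and 1336 with 75th percentile scaling), and in dbR over dbdb from 82 and 26 to 52 and 55.

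Replicate numbers did not pair the mice. Deviations from group means correlated at -0.17 to 0.06 for the same number (9 pairs) and -0.11 to 0.17 for different numbers (18 pairs). With the replicate block the Car4 difference between dbR and dbdb, 0.68, had an adjusted p of 0.0617. Counts per gene are not part of FPKM values, so the counting error of Slc4a1 and other low genes is not known. List counts and 4 genes (Atp6v1g3, Fxyd4, Emcn, Kdr) under these settings, and the lists without Atp6v0a4, were added after the data were seen.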

Other observations

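The genes whose log2 levels were most like those of a member over the 9 libraries are given as descriptions, because the libraries share their groups. For Rhcg these were Rhbg (Pearson r = 0.994, n = 9), Rap1gap2 (0.994) and Atp6v0d2 (0.992). For Slc4a1 they were Efhd1 (0.998), Twsg1 (0.993) and Aqp6 (0.992), and for Slc26a4 Tanc1 (0.992), Rap1gap2 (0.989) and Cadps2 (0.989). For Atp6v1b1, Prkd1 (0.990) and Dkk3 (0.989) were among the closest. Slc38a3 was most like Glud1 (0.979), and Car4 most like Pop1 (0.994) and Cbs (0.992). Among the members themselves Rhcg, Slc4a1, Atp6v1b1 and Slc26a4 correlated at 0.96 to 0.99 with each other, and Car4 at -0.79 to -0.91 with these 4.

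Annotated long noncoding RNAs were sought only where they overlapped 1 of the 9 genes, and newly assembled ones within 50000 bases. Such RNAs were found beside or within 2 of the 9 genes. LNC_000332 and LNC_000333 lie 5868 and 14796 bases downstream of Slc4a4 on its strand. LNC_000332 was at 0.373, 0.612 and 0.60 FPKM in Control, 0.644, 0.724 and 0.581 in dbdb, and 0.204, 0.0321 and 0.161 in dbR. LNC_000333 was at 0.167, 0.272 and 0.351 in Control, 0.223, 0.516 and 0.414 in dbdb, and 0.0633, 0.0343 and 0.0458 in dbR. Both were lower in the 3 dbR mice than in the other 6, while Slc4a4 in dbR overlapped dbdb. A noncoding RNA inside Rhcg on the same strand was at 1.39 to 1.72 FPKM in Control, 2.85 to 3.46 in dbdb and 2.41 to 3.24 in dbR, and its reads cannot be told apart from unspliced Rhcg. No test was run on these RNAs.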
